A study of Mus musculus with 6 samples.

Results

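Desmosomal cadherins and plakophilin 1 were examined across β-catenin-driven mouse prostate tumors and normal mouse prostate. The 10 genes were taken from the count table by symbol and comprise the desmogleins Dsg1a, Dsg1b, Dsg1c, Dsg2, Dsg3 and Dsg4, the desmocollins Dsc1, Dsc2 and Dsc3, and plakophilin 1 (Pkp1). They are 10 of the 24091 genes in the table. Bulk RNA sequencing covered 3 groups of 2 libraries each. The 12Q group was prostate tumors of mice with a humanised allele encoding 12 glutamines in a polyglutamine tract, and the 48Q group was tumors of mice with the 48-glutamine form of that allele. In addition, both tumor genotypes had a Ctnnb1 (β-catenin) allele whose exon 3 is conditional, over a wild-type allele, together with PB-Cre4, a transgene in which the probasin promoter drives Cre recombinase in prostate epithelium. Wild-type (WT) normal prostate was the control and carried none of these alleles, so the tumor, the humanised allele, the Ctnnb1 allele and the Cre transgene cannot be told apart in a tumor-against-WT comparison. The labels give neither the age of the mice nor whether the libraries of a group came from separate animals. The p-values therefore measure only the spread between these libraries, which may be technical.

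Desmosomes are junctions that tie the keratin filaments of neighbouring epithelial cells together. Their desmogleins and desmocollins span the membrane and bind their counterparts on the next cell, while plakoglobin (Jup), plakophilins and desmoplakin (Dsp) form the plaque that links the cadherin tails to keratin. Dsg2 and Dsc2 are the broadly expressed pair of simple epithelia, Dsg3 and Dsc3 are found mainly in the basal layers of stratified epithelia, Dsg1, Dsc1 and Pkp1 mark their upper layers, and Dsg4 is best known from the hair follicle. Probasin (Pbsn), a secretory product of the prostate, served as the tissue check.

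The libraries held 26416181 to 28559546 counts each, and 3 counts, the upper limit that an observed 0 allows, corresponded to 0.0856 to 0.156 CPM, the counts scaled to library size and a normalisation factor. Intervals and limits built on counts cover counting error only. Pbsn stood at 3.33 and 5.14 CPM in the 12Q tumors, 3954 and 2248 CPM in the 48Q tumors and 28210 and 16140 CPM in the WT prostates, so the defining marker of the labelled tissue was near 0 in the 12Q libraries. WT replicate 1 stood apart from WT replicate 2 in the summed level of 4 simple epithelial keratins (5499 against 1323 CPM). In such bulk libraries, fewer cells of a type and less RNA per cell cannot be told apart. Values of a group are given in the order replicate 1, replicate 2.

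The 9 cadherin genes lie side by side on chromosome 18, at chr18:19960930-20604526 of the mm10 build. The span is 644 kb and the table lists no other gene inside it. Running from the centromeric side, the desmocollins Dsc3 (chr18:19960930-20002097), Dsc2 (chr18:20030633-20059554) and Dsc1 (chr18:20083471-20114773) are on the minus strand. The desmogleins follow on the plus strand as Dsg1c (chr18:20247340-20285031), Dsg1a (chr18:20310873-20343353), Dsg1b (chr18:20376729-20412183), Dsg4 (chr18:20436175-20471821), Dsg3 (chr18:20510274-20541310) and Dsg2 (chr18:20558074-20604526). Pkp1 lies apart from them, at chr1:135871394-135919207 on the minus strand. Exons of Dsg2 overlap those of Gm16090 in the GENCODE M21 annotation, and Dsg1a, Dsg1b and Dsg1c are related copies. The counts of these 4 genes are therefore uncertain to the extent that reads were shared.

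In 12Q tumors against WT, Dsg4, Dsg1a, Dsg1b, Dsg1c, Dsg2 and Pkp1 rose and no member fell. In 48Q tumors against WT, Dsg1c and Dsg3 rose and no member fell. Between 12Q and 48Q tumors no member passed the threshold. All 10 genes passed the filter on low counts and were tested with edgeR's quasi-likelihood test, where a gene was called at a Benjamini-Hochberg adjusted p under 0.05 over all 15050 genes tested. The 6 of 10 members called higher in 12Q against WT stood against a background of 11.2% of all genes called higher, and the 0 called lower against 11.2%. In 48Q against WT, 2 of 10 were called higher against a background of 3.95%, and 0 lower against 1.23%. In 12Q against 48Q, 0 of 10 were called higher against a background of 1.01%, and 0 lower against 3.16%. At an unadjusted edgeR p under 0.05, 9, 5 and 5 members passed in the 3 comparisons, and 1, 0 and 2 of them were lower. Of all 15050 genes tested, 5796, 3749 and 3961 passed at that level. In 12Q against WT, DESeq2 called 8 members higher, adding Dsc2 and Dsg3 to the 6 of edgeR, and 1 lower (Dsc3). In 48Q against WT it called 5 higher, adding Dsg1a, Dsg1b and Dsg4, and none lower. Between 12Q and 48Q it called 2 members higher (Dsg4 and Pkp1) and 2 lower (Dsc3 and Dsg3). Of all 15050 genes tested, DESeq2 called 2409 higher and 2507 lower in 12Q against WT, and 1561 higher and 979 lower in 48Q against WT. Between 12Q and 48Q it called 920 higher and 1561 lower. The members' median log2 fold change was 2.55 for 12Q over WT, 1.77 for 48Q over WT and 0.44 for 12Q over 48Q, with genes that had no counts in a group entered at their lower bound, beside medians of -0.01, 0.02 and 0 over all genes tested. Both tumor comparisons use the same WT libraries, so they are not independent of each other. The count of 6 in 12Q against WT fell without 12Q replicate 2, without either 48Q library and without either WT library. The count of 2 in 48Q against WT fell without either 48Q library or either WT library, and rose without either 12Q library. In each of these cases the number called higher among all genes tested moved in the same direction.

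**Figure D1:**
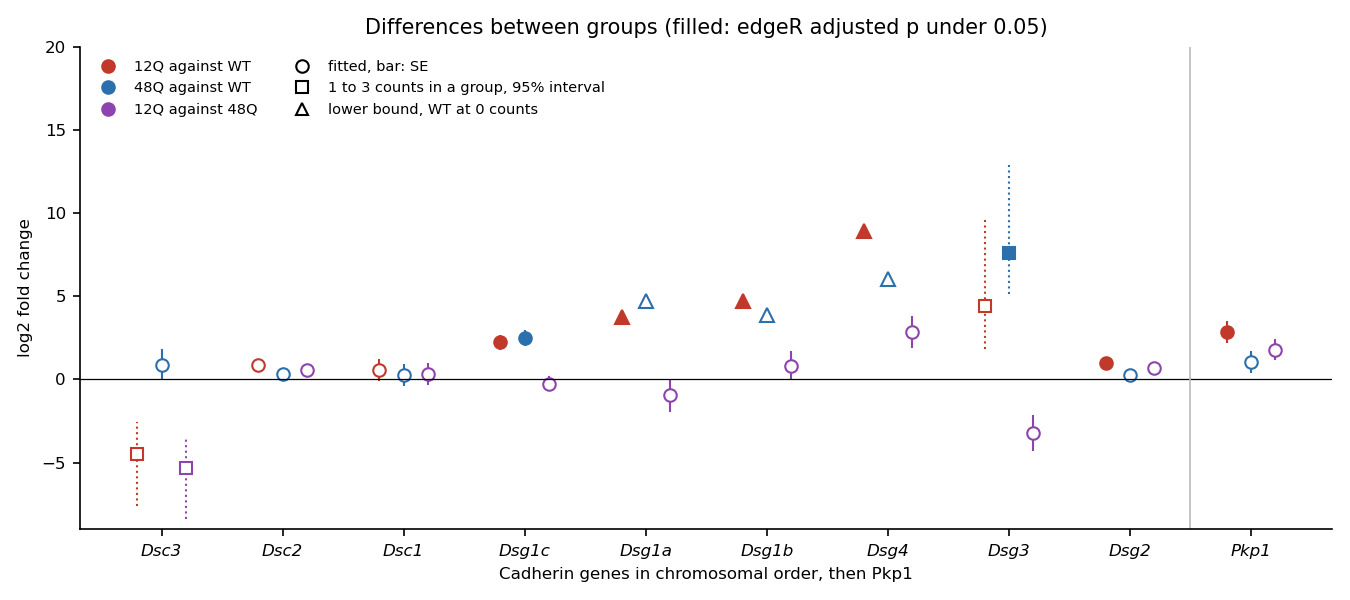
Log2 fold changes (vertical axis) of the 9 cadherin genes in chromosomal order and of Pkp1 (horizontal axis) for 12Q against WT, 48Q against WT and 12Q against 48Q. Circles are fitted values with their SE, squares are count ratios with a 95% interval where a group had 1 to 3 counts, triangles are lower bounds where WT had 0 counts, and filled symbols passed the adjusted p threshold of 0.05: against WT the highest symbols belong to Dsg4, Dsg3, Dsg1a and Dsg1b, Dsg1c and Pkp1 lie between 1.05 and 2.85, and Dsc3 lies below 0 in both comparisons of 12Q tumors, while Dsc2, Dsc1 and Dsg2 lie between 0.26 and 1.02 throughout.

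Dsg4, the hair desmoglein, was undetected in WT and present in all 4 tumor libraries. It had 653 and 3779 counts, or 24.2 and 117 CPM, in the 12Q tumors, 134 and 539 counts, or 4.04 and 15.4 CPM, in the 48Q tumors, and 0 counts in both WT prostates. Every tumor library was above the WT libraries and both 12Q libraries were above both 48Q libraries, but in each tumor group replicate 2 was several times replicate 1. Against 3 counts per WT library, the 12Q level was at least 488-fold higher (edgeR adjusted p = 0.0116). This call held under all 12 alternatives tried. Leaving out 12Q replicate 1 gave a bound of 837-fold, and leaving out 12Q replicate 2 gave 168-fold. The 48Q level of Dsg4 was at least 67.1-fold above WT, with an edgeR adjusted p of 0.0501 that misses the threshold. The 48Q value passed without 12Q replicate 1 (edgeR adjusted p = 0.0459), without 12Q replicate 2 (0.0436) and without 48Q replicate 1 (0.0466), and its bound was 106-fold with 48Q replicate 1 left out and 27.8-fold with 48Q replicate 2 left out. The difference between 12Q and 48Q was 2.86 ± 0.972 on the log2 scale (SE, n = 2 each, edgeR adjusted p = 0.148) and was not past the threshold.

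The 3 genes for desmoglein 1, the main desmoglein of the upper epidermis and the target of autoantibodies in human pemphigus foliaceus, were higher in 12Q tumors than in WT. Dsg1c had 10.6 and 7.46 CPM in 12Q tumors, 8.10 and 13.3 CPM in 48Q tumors, and 2.14 and 1.68 CPM in WT. The tumor groups overlapped each other, and all 4 tumor libraries lay above WT. Dsg1c rose by 2.24 ± 0.462 on the log2 scale in 12Q (SE, edgeR adjusted p = 0.0215) and by 2.49 ± 0.465 in 48Q (edgeR adjusted p = 0.0402) against WT. The 12Q-against-48Q difference of Dsg1c was -0.25 ± 0.434, with a 95% interval of -1.30 to 0.80 (edgeR adjusted p = 0.740). Dsg1a had 0.444 and 3.47 CPM in 12Q tumors, 3.64 and 3.99 CPM in 48Q tumors, and no count in WT. Dsg1b had 1.30 and 6.28 CPM in 12Q tumors, 1.54 and 2.74 CPM in 48Q tumors, and no count in WT. In 12Q tumors these were at least 13.5-fold (Dsg1a, edgeR adjusted p = 0.0322) and 26.2-fold (Dsg1b, edgeR adjusted p = 0.0191) higher than in WT, again against 3 counts per WT library. In 48Q tumors the bounds were 26.4-fold (Dsg1a, edgeR adjusted p = 0.0535) and 14.8-fold (Dsg1b, edgeR adjusted p = 0.0541), neither past the threshold.

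Several of the desmoglein 1 calls were lost when a single library was left out. Leaving a library out also leaves fewer libraries to estimate the spread, which all 3 groups share. Without either 48Q library, the Dsg1c change in 12Q against WT stayed at 2.24 on the log2 scale. In 12Q against WT, the edgeR adjusted p of Dsg1a was 0.0521 without 12Q replicate 2, where the bound was 3.08-fold, 0.0502 without 48Q replicate 2, 0.0916 without WT replicate 1 and 0.0953 without WT replicate 2. Without 12Q replicate 1 its bound was 24.8-fold. That of Dsg1b was 0.0588 without WT replicate 1 and 0.0608 without WT replicate 2, and its bound was 45.0-fold with 12Q replicate 1 left out and 8.98-fold with 12Q replicate 2 left out. The Dsg1c call was kept without 12Q replicate 2 and lost at an edgeR adjusted p of 0.0501 without 12Q replicate 1, 0.0506 without 48Q replicate 1, 0.0585 without 48Q replicate 2, 0.0549 without WT replicate 1 and 0.0693 without WT replicate 2. In 48Q against WT, the Dsg1c call was kept without either 12Q library and lost at 0.124 without 48Q replicate 1, 0.296 without 48Q replicate 2, 0.134 without WT replicate 1 and 0.0773 without WT replicate 2. Without a 12Q library, Dsg1a and Dsg1b passed in 48Q against WT, at edgeR adjusted p of 0.0265 (12Q replicate 1 left out) and 0.0288 (12Q replicate 2) for Dsg1a and of 0.0374 and 0.0411 for Dsg1b.

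Because some reads of these related copies may have been divided among them, their counts were also summed. A sum does not restore reads that were left uncounted. The sum rose by 2.95 ± 0.414 on the log2 scale in 12Q (SE, edgeR adjusted p = 0.00811) and by 3.12 ± 0.416 in 48Q (edgeR adjusted p = 0.0196) against WT, and the difference between 12Q and 48Q was -0.17 ± 0.376 (edgeR adjusted p = 0.791). For the sum, the 12Q call held under all 10 alternatives run, with an edgeR adjusted p of at most 0.0321. The 48Q call was lost without 48Q replicate 1 (0.0584), 48Q replicate 2 (0.123), WT replicate 1 (0.105) or WT replicate 2 (0.0533). The sum was not run with only the compared groups or with the DESeq2 test. With only the compared groups, Dsg1a (edgeR adjusted p = 0.0533) and Dsg1c (0.0611) lost their 12Q calls, and Dsg1b (0.0312) kept its call. Per kilobase of exon, the 3 genes together stood at 2.90 and 3.51 CPM per kb in 12Q tumors, 2.90 and 4.44 in 48Q tumors, and 0.525 and 0.413 in WT. Within that total Dsg1c made up 89.7% and 52.2% in 12Q tumors, 68.7% and 73.6% in 48Q tumors, and 100% in both WT prostates.

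**Figure D2:**
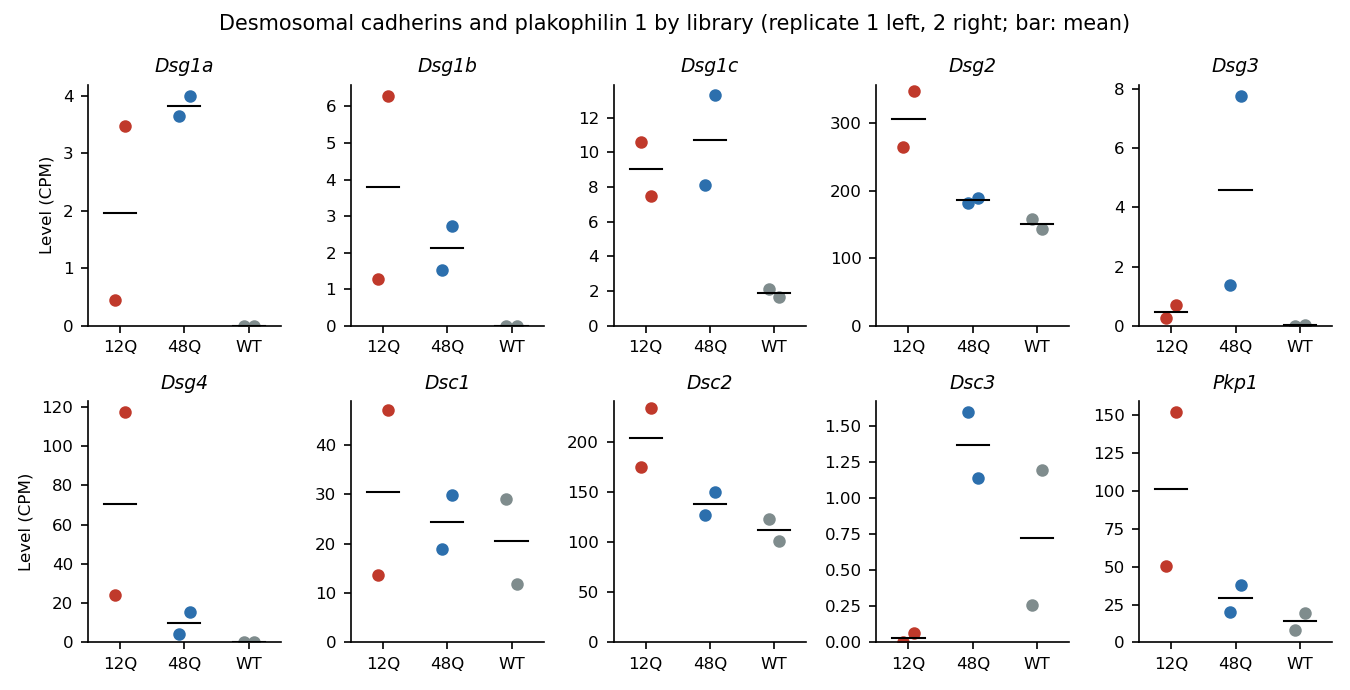
CPM (vertical axis, starting at 0 and scaled for each gene) of the 10 members in each 12Q, 48Q and WT library, 1 point per library with a bar at the group mean. Dsg1a, Dsg1b and Dsg4 are at 0 in both WT libraries, 12Q replicate 2 is the highest library for Dsg1b, Dsg2, Dsg4, Dsc1, Dsc2 and Pkp1, and both 12Q libraries are at or next to 0 for Dsc3.

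Dsg2 and Dsc2, the pair that simple epithelia use, were abundant in every library, and their group levels lay within 1.02 log2 units of each other. Dsg2 had 264 and 347 CPM in 12Q tumors, 182 and 190 CPM in 48Q tumors, and 158 and 144 CPM in WT. The 3 groups did not overlap. Dsg2 rose by 1.02 ± 0.245 on the log2 scale in 12Q against WT (SE, edgeR adjusted p = 0.0323), and its difference in 48Q against WT was 0.30 ± 0.243, with a 95% interval of -0.29 to 0.89 (edgeR adjusted p = 0.479). The difference between 12Q and 48Q was 0.72 ± 0.244 (edgeR adjusted p = 0.134). The 12Q call was kept without 12Q replicate 1 and lost without each other library, at an edgeR adjusted p of 0.0723 without 12Q replicate 2, 0.116 without 48Q replicate 1, 0.117 without 48Q replicate 2, 0.0641 without WT replicate 1 and 0.0806 without WT replicate 2.

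Dsc2 had 174 and 234 CPM in 12Q tumors, 127 and 150 CPM in 48Q tumors, and 122 and 101 CPM in WT, in the same order of groups as Dsg2 and again without overlap. Its differences from WT were 0.87 ± 0.256 in 12Q (edgeR adjusted p = 0.0556) and 0.31 ± 0.255 in 48Q (edgeR adjusted p = 0.484) on the log2 scale, and that between 12Q and 48Q was 0.56 ± 0.255 (edgeR adjusted p = 0.220). Without 12Q replicate 1 the first of these was 1.12 and passed (edgeR adjusted p = 0.0424). The Dsg2-to-Dsc2 ratio of CPM per kb was 0.967 and 0.947 in 12Q tumors, 0.913 and 0.808 in 48Q tumors, and 0.823 and 0.911 in WT. The 48Q and WT ranges of that ratio overlap, and the 12Q libraries lie above both.

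Dsg3 and Dsc3, the pair of basal layers, were scarce in all groups and had their highest levels in 48Q tumors. Dsg3, the target of autoantibodies in human pemphigus vulgaris, had 7 and 23 counts in 12Q tumors, 46 and 272 counts in 48Q tumors, and 0 and 1 counts in WT. These counts correspond to 0.259 and 0.712 CPM, 1.39 and 7.76 CPM, and 0 and 0.0442 CPM. The groups did not overlap, and 48Q replicate 2 stood far above 48Q replicate 1. Dsg3 rose in 48Q against WT, with a ratio of 195 and a 95% counting interval of 34.7 to 7711 (edgeR adjusted p = 0.0477). That call was lost when any of the 6 libraries was left out, at an edgeR adjusted p of 0.0541 without 12Q replicate 1, 0.0540 without 12Q replicate 2, 0.0615 without 48Q replicate 1, 0.226 without 48Q replicate 2, 0.192 without WT replicate 1 and 0.0909 without WT replicate 2. The ratio was 323 without 48Q replicate 1, 57.7 without 48Q replicate 2 and 105 without WT replicate 1. Without WT replicate 2, which held the single WT count, Dsg3 was at least 29.0-fold higher. In 12Q against WT the ratio was 21.1 (95% counting interval 3.51 to 862, edgeR adjusted p = 0.0990), and in 12Q against 48Q the difference was -3.21 ± 1.06 on the log2 scale (SE, edgeR adjusted p = 0.128).

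Dsc3 had 0 and 2 counts in 12Q tumors, 53 and 40 counts in 48Q tumors, and 5 and 27 counts in WT. In CPM these were 0 and 0.0619 in 12Q tumors, 1.60 and 1.14 in 48Q tumors, and 0.261 and 1.19 in WT. Both 12Q libraries lay below every other library, and the 48Q and WT ranges overlapped. The ratio was 0.0440 in 12Q against WT (95% counting interval 0.00511 to 0.173, edgeR adjusted p = 0.0546) and 0.0247 in 12Q against 48Q (0.00295 to 0.0919, edgeR adjusted p = 0.0675), neither past the threshold. Without WT replicate 1 the 12Q-against-WT ratio was 0.0283 and passed (edgeR adjusted p = 0.0491). Dsc3 differed by 0.89 ± 0.938 on the log2 scale in 48Q against WT (SE, edgeR adjusted p = 0.590).

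Trp63, Krt15 and Col17a1, genes of basal epithelial cells, were also near 0 in 12Q tumors. Of 8 basal markers, 6 fell and 1 rose in 12Q against WT, and 5 fell in 12Q against 48Q, while none passed in 48Q against WT (2 at an unadjusted edgeR p under 0.05). Trp63, the p63 factor that basal cells depend on, had 0.0370 and 0.186 CPM in 12Q tumors, 29.6 and 24.2 CPM in 48Q tumors, and 33.9 and 42.9 CPM in WT. Krt15, a basal keratin, had 0.0740 and 0.526 CPM in 12Q tumors, 123 and 62.7 CPM in 48Q tumors, and 115 and 84.3 CPM in WT. Col17a1, a hemidesmosome collagen, had 0.0740 and 0.0929 CPM in 12Q tumors, 28.5 and 26.6 CPM in 48Q tumors, and 29.9 and 18.9 CPM in WT. In each of these the 12Q libraries were more than 100 times below the others, and the edgeR adjusted p of the fall in 12Q was at most 0.00362 against WT and 0.0161 against 48Q. Each of these calls held under all 12 alternatives. The summed level of the 8 markers was less far apart, at 721 to 972 CPM in 12Q tumors, 1233 to 1256 CPM in 48Q tumors and 1167 to 1926 CPM in WT, and no marker was at 0 in any library. Itgb4, named here after its values were seen, was the marker that rose in 12Q. The part of basal markers in the levels of Dsg3 and Dsc3 was not tested.

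**Figure D3:**
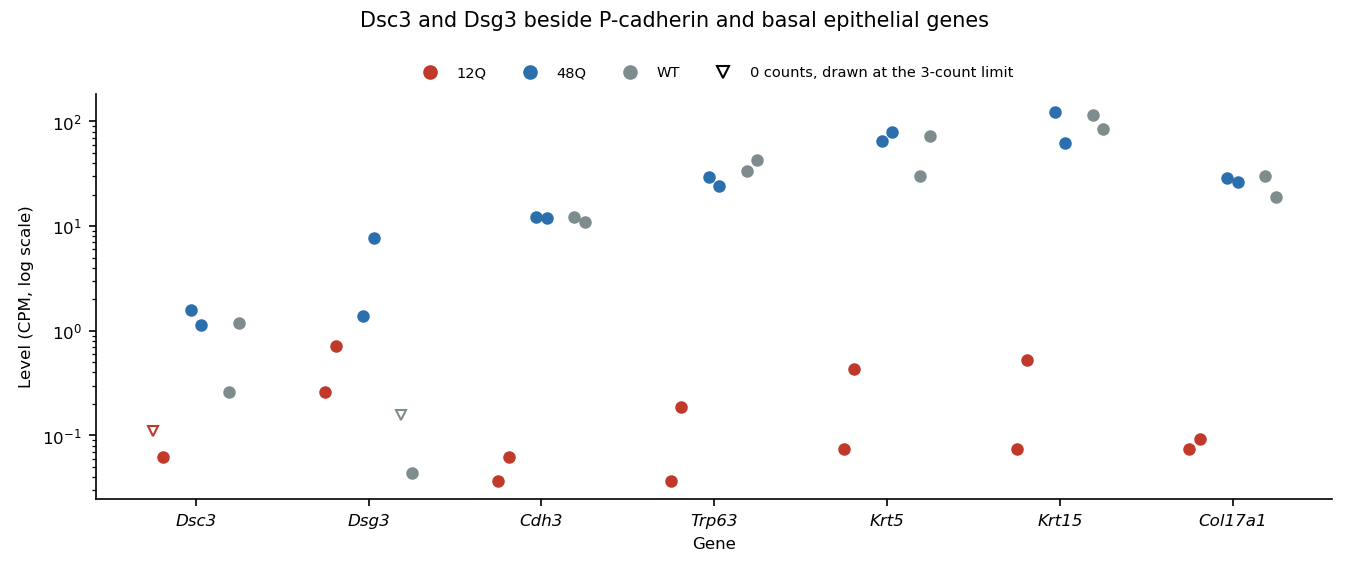
CPM on a log axis of Dsc3 and Dsg3 beside P-cadherin (Cdh3) and the basal genes Trp63, Krt5, Krt15 and Col17a1 in each 12Q, 48Q and WT library, with open triangles for a library at 0 counts drawn at its 3-count limit. The 12Q points of Cdh3 and of these basal genes lie below 1 CPM and all 48Q and WT points of those genes lie above 10 CPM, whereas for Dsg3 the WT libraries are the lowest. The basal markers Itga6, Itgb4, Dst and Krt14 are not drawn. Their 12Q levels were 542 and 749, 119 and 175, 58.4 and 42.6, and 1.33 and 3.90 CPM.

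Dsc1, the desmocollin of the upper epidermis, showed no difference beyond the replicate spread in any comparison. It had 13.7 and 47.2 CPM in 12Q tumors, 19.0 and 29.9 CPM in 48Q tumors, and 29.1 and 11.9 CPM in WT. All 3 ranges overlapped, and replicate 1 was the higher library in WT but the lower one in both tumor groups. The log2 difference was 0.57 ± 0.673 in 12Q against WT, with a 95% interval of -1.05 to 2.20 (edgeR adjusted p = 0.568). It was 0.26 ± 0.671 in 48Q against WT (edgeR adjusted p = 0.843) and 0.32 ± 0.670 in 12Q against 48Q, with an interval of -1.30 to 1.93 (edgeR adjusted p = 0.787). These intervals do not exclude changes of the size seen for Dsg2 or Dsc2.

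Pkp1, a plaque protein that binds desmoplakin and clusters desmosomal cadherins in stratified epithelia, was higher in 12Q tumors than in WT. It had 50.6 and 152 CPM in 12Q tumors, 20.4 and 37.8 CPM in 48Q tumors, and 8.50 and 19.5 CPM in WT. The 3 groups did not overlap, and replicate 2 was the higher library in each. Pkp1 rose by 2.85 ± 0.677 on the log2 scale in 12Q against WT (SE, edgeR adjusted p = 0.0310). The change was 1.86 without 12Q replicate 2 (edgeR adjusted p = 0.101), 2.38 without WT replicate 1 (0.122) and 3.57 without WT replicate 2 (0.0641), so the call was lost in each case, and it was 3.49 and kept without 12Q replicate 1 (0.0242). The difference in 48Q against WT was 1.05 ± 0.641, with a 95% interval of -0.49 to 2.60 (edgeR adjusted p = 0.351), and that between 12Q and 48Q was 1.80 ± 0.648 (edgeR adjusted p = 0.150).

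None of the other plaque and partner genes passed the threshold by edgeR, but Jup and Pkp3, like Pkp1, were higher in both 12Q libraries than in any other library. Of 6 such genes, 0 were called in each of the 3 comparisons by edgeR, with 3, 3 and 2 at an unadjusted p under 0.05 in the 12Q, 48Q and tumor-to-tumor comparisons, while DESeq2 called 2 (Jup and Pkp4), 1 (Pkp4) and 1 (Jup). Their median log2 fold changes were 0.13, -0.36 and 0.63. Dsp, the desmoplakin gene whose product anchors keratin and whose exons overlap Gm10129, had 792 and 1488 CPM in 12Q tumors, 699.5 and 775 CPM in 48Q tumors, and 898 and 613 CPM in WT. The 12Q and WT ranges overlapped. Jup, the plakoglobin gene, had 339.7 and 443 CPM in 12Q tumors, 170.1 and 181 CPM in 48Q tumors, and 219 and 124 CPM in WT. Both 12Q libraries were above all others, and the difference was 1.19 ± 0.339 against WT (edgeR adjusted p = 0.0511) and 1.16 ± 0.339 against 48Q (edgeR adjusted p = 0.103) on the log2 scale.

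Pkp2, the plakophilin of simple epithelia and heart, had 68.3 and 65.2 CPM in 12Q tumors, 51.4 and 54.0 CPM in 48Q tumors, and 276 and 57.7 CPM in WT. Its WT level rested on replicate 1, and the difference was -1.32 ± 0.646 in 12Q (edgeR adjusted p = 0.185) and -1.66 ± 0.652 in 48Q (edgeR adjusted p = 0.181) against WT. Pkp3, which is widespread in epithelia, had 47.8 and 79.4 CPM in 12Q tumors, 35.4 and 36.5 CPM in 48Q tumors, and 42.0 and 30.8 CPM in WT. Its difference was 0.81 ± 0.315 on the log2 scale in 12Q against WT (edgeR adjusted p = 0.114) and 0.82 ± 0.315 in 12Q against 48Q (edgeR adjusted p = 0.164). The value against WT was 1.34 and passed under library totals (edgeR adjusted p = 0.0312), and it was 1.18 and passed without 12Q replicate 1 (0.0454). Pkp4, a related armadillo protein, had 157 and 174 CPM in 12Q tumors, 164 and 167 CPM in 48Q tumors, and 268 and 266 CPM in WT. Pkp4 was lower in every tumor library than in WT, with a difference of -0.69 ± 0.215 on the log2 scale in both tumor groups (edgeR adjusted p = 0.0649 in 12Q and 0.114 in 48Q). Perp, a membrane protein of desmosomes and a target of p63, had 155 and 118 CPM in 12Q tumors, 82.8 and 92.3 CPM in 48Q tumors, and 221 and 123 CPM in WT. Its difference of -0.97 ± 0.330 in 48Q against WT was not past the threshold (edgeR adjusted p = 0.137).

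**Figure D4:**
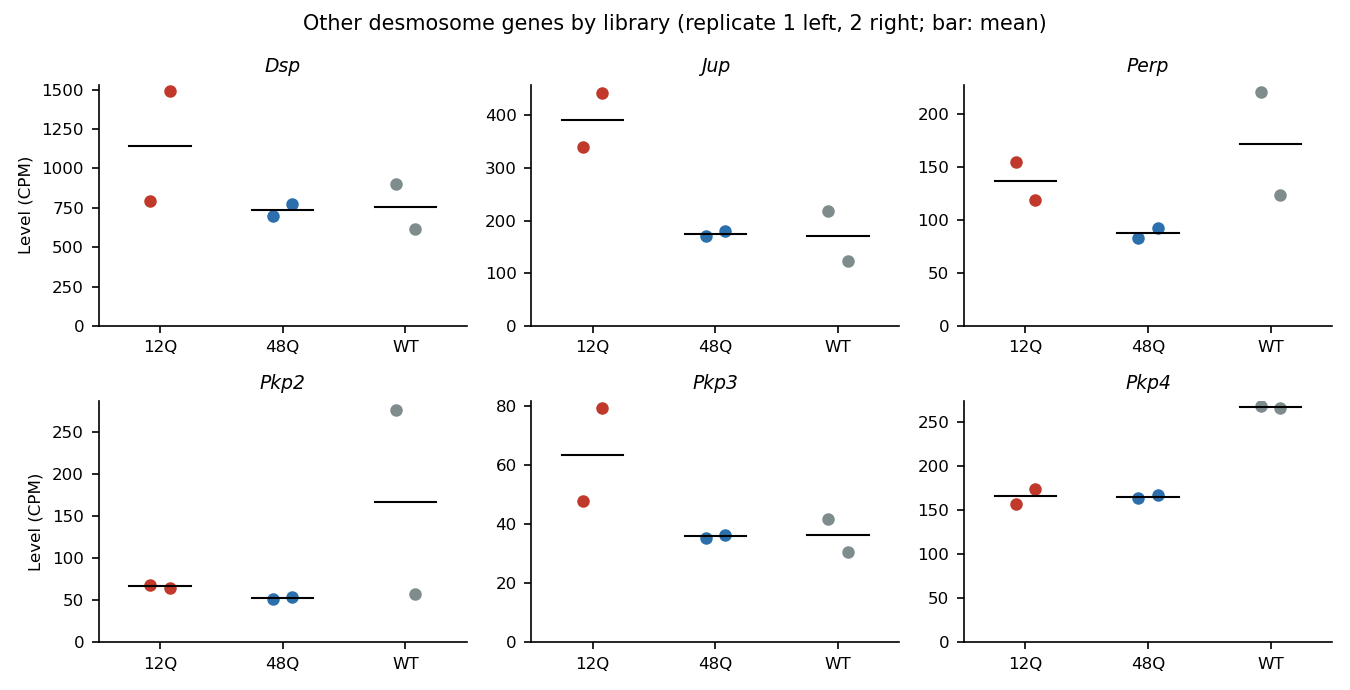
CPM (vertical axis, starting at 0 and scaled for each gene) of Dsp, Jup, Perp, Pkp2, Pkp3 and Pkp4 in each 12Q, 48Q and WT library, 1 point per library with a bar at the group mean. Jup is highest in the 12Q libraries, Pkp4 is highest in WT at 268 and 266 CPM, and WT replicate 1 of Pkp2 stands apart at 276 CPM.

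Scaled to exon length, the share of Dsg2 among desmogleins did not overlap between tumors and WT, whereas that of Dsc2 among desmocollins did. Dsg2 held 76.4% and 53.0% of summed desmoglein CPM per kb in 12Q tumors, 83.4% and 68.1% in 48Q tumors, and 97.3% and 97.6% in WT. Dsg4 held 16.6% and 42.4% in 12Q tumors, 4.39% and 13.1% in 48Q tumors, and 0% in both WT prostates. Dsg1c held 6.20% and 2.31% in 12Q tumors, 7.53% and 9.70% in 48Q tumors, and 2.67% and 2.31% in WT. Dsg3 reached 5.58% in 48Q replicate 2 and stayed at or below 1.27% elsewhere. All 4 tumor libraries therefore had a smaller Dsg2 share than the WT libraries, with a wide spread inside each tumor group. Among desmocollins, Dsc2 held 93.2% and 84.1% in 12Q tumors, 86.8% and 83.8% in 48Q tumors, and 81.7% and 89.1% in WT, so the 3 ranges overlapped. With 2 libraries against 2, an exact permutation test of a share cannot go below a two-sided p of 0.333, and none was run. Without length scaling the mean Dsg4 share was 16.2% in place of 29.5% in 12Q tumors and 4.31% in place of 8.75% in 48Q tumors.

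The desmoglein and desmocollin totals were closest to each other in 48Q tumors. Desmogleins summed to 41.9 and 79.4 CPM per kb in 12Q tumors, 26.4 and 33.7 in 48Q tumors, and 19.7 and 17.8 in WT. Desmocollins summed to 35.6 and 52.8 CPM per kb in 12Q tumors, 27.8 and 33.9 in 48Q tumors, and 28.5 and 21.4 in WT. The ratio of the totals was 1.18 and 1.50 in 12Q tumors, 0.951 and 0.993 in 48Q tumors, and 0.692 and 0.832 in WT, with no overlap between groups. The ratio of all cadherins to Dsp was 0.936 and 0.849 in 12Q tumors, 0.741 and 0.835 in 48Q tumors, and 0.513 and 0.613 in WT, also without overlap. Pkp1 made up 28.0% and 46.7% of the summed CPM per kb of Pkp1, Pkp2 and Pkp3 in 12Q tumors, 17.4% and 27.3% in 48Q tumors, and 2.73% and 16.9% in WT. The low WT value of 2.73% came from replicate 1, the library with the high Pkp2 level.

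**Figure D5:**
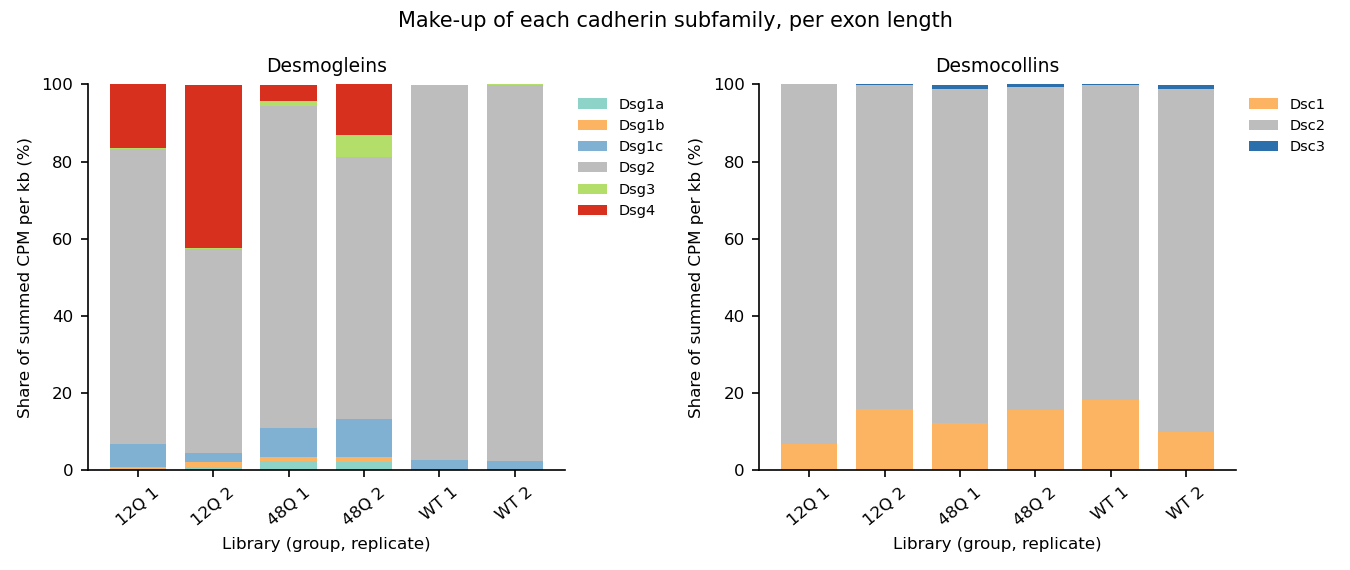
Share of each desmoglein (left) and each desmocollin (right) in the summed CPM per kb of its subfamily (vertical axis, percent) for each library. Dsg4 takes 16.6% and 42.4% of the desmogleins in the 12Q libraries and 0% in WT, while Dsc2 takes 81.7% to 93.2% of the desmocollins in all 6 libraries.

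On this per-length scale Dsc2 and Dsg2 led the members in all 3 groups, and their ranges overlapped in 12Q tumors and WT but not in 48Q tumors. In 12Q tumors the mean levels ran from Dsc2 (38.8 CPM per kb) and Dsg2 (37.0) over Pkp1 (21.8), Dsg4 (20.3), Dsc1 (5.39) and Dsg1c (2.22) to Dsg1b (0.638), Dsg1a (0.348), Dsg3 (0.118) and Dsc3 (0.00581). Of the neighbours in that order only Dsg1c and Dsg1b, and Dsg3 and Dsc3, were separated by their ranges, and all other neighbours overlapped. In 48Q tumors the order was Dsc2 (26.3), Dsg2 (22.5), Pkp1 (6.25), Dsc1 (4.33), Dsg4 (2.79), Dsg1c (2.63), Dsg3 (1.11), Dsg1a (0.680), Dsg1b (0.360) and Dsc3 (0.257). Here Dsc2 and Dsg2, Dsg2 and Pkp1, Dsg1c and Dsg3, and Dsg1a and Dsg1b were separated by their ranges, and the other neighbours overlapped. In WT the order was Dsc2 (21.2), Dsg2 (18.3), Dsc1 (3.63), Pkp1 (3.01), Dsg1c (0.469), Dsc3 (0.136) and Dsg3 (0.00536), with Dsg1a, Dsg1b and Dsg4 at 0. There Dsc2 overlapped with Dsg2 and Dsc1 with Pkp1, and the other detected neighbours did not overlap. With GENCODE M21 exon lengths, Dsg4 (20.3) lay just above Pkp1 (20.2) in 12Q tumors and Dsg1a (0.671) just above Dsg3 (0.655) in 48Q tumors. Dsg4 ranked above 86.2% of all genes in the table by CPM per kb in 12Q tumors and above 58.8% in 48Q tumors.

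Genes of the corneodesmosome, the desmosome of the cornified layer, were at or near 0 in WT. Of 5 such genes 4 were tested, and Spink5, Cdsn and Klk7 rose in 12Q against WT, while 0 passed in 48Q against WT (4 at an unadjusted edgeR p under 0.05) and 0 in 12Q against 48Q (1). Cdsn, corneodesmosin, had 1.48 and 16.3 CPM in 12Q tumors, 3.64 and 3.25 CPM in 48Q tumors, and 0 and 0.0884 CPM in WT. Spink5, an inhibitor of the proteases that cut desmoglein 1, had 7.96 and 45.6 CPM in 12Q tumors, 6.29 and 15.7 CPM in 48Q tumors, and 0 and 0.310 CPM in WT. Spink5 rose by 7.32 ± 1.41 on the log2 scale in 12Q (SE, edgeR adjusted p = 0.0177), a call lost without 12Q replicate 2 (5.58, edgeR adjusted p = 0.0503) and without WT replicate 1 (6.42, 0.0694). The Cdsn ratio of 199 in 12Q against WT (95% counting interval 54.9 to 1650, edgeR adjusted p = 0.0235) lost its call without WT replicate 1 (0.100) and without WT replicate 2 (0.0789). Klk7, a protease of the cornified layer, had a ratio of 93.7 in 12Q against WT (16.5 to 3727, edgeR adjusted p = 0.0279). Its call was lost without 12Q replicate 2 (0.0717), 48Q replicate 1 (0.0516), 48Q replicate 2 (0.0520), WT replicate 1 (0.105) or WT replicate 2 (0.0818). For Spink5, Cdsn and Klk7 the 12Q and 48Q libraries overlapped. Klk14, a protease of the same layer named after its values were seen, ran lower in 12Q than in 48Q tumors, with 0 and 0.310 CPM in 12Q tumors, 1.02 and 1.77 CPM in 48Q tumors, and 0.0522 and 0 CPM in WT. Its difference between 12Q and 48Q was -3.09 ± 1.27 on the log2 scale (edgeR adjusted p = 0.188), not past the threshold.

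P-cadherin (Cdh3) was the adherens junction gene that fell in 12Q tumors. Of 10 such genes tested, Nectin2 rose and Cdh3 fell in 12Q against WT, none passed in 48Q against WT (1 at an unadjusted edgeR p under 0.05), and Cdh3 fell in 12Q against 48Q. Cdh3, the cadherin of basal cells, had 0.0370 and 0.0619 CPM in 12Q tumors, 12.1 and 12.1 CPM in 48Q tumors, and 12.3 and 11.0 CPM in WT. The ratio was 0.00437 in 12Q against WT (95% counting interval 0.000897 to 0.0128, edgeR adjusted p = 0.00270) and 0.00417 in 12Q against 48Q (0.000859 to 0.0122, edgeR adjusted p = 0.00813), and both calls held under all 12 alternatives. Cdh1, E-cadherin, had 1013 and 1107 CPM in 12Q tumors, 744 and 699 CPM in 48Q tumors, and 1376 and 608 CPM in WT, and was not past the threshold in any comparison. The Nectin2 call was lost without 12Q replicate 2 (edgeR adjusted p = 0.112), 48Q replicate 1 (0.0951), 48Q replicate 2 (0.0954) or WT replicate 1 (0.0984).

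Among 11 transcription factors known to act on desmosomal genes, 7 passed the filter on low counts. In 12Q against WT, Grhl3 and Lef1 rose and Trp63 fell, as did Snai2 and Zeb1, which are named after their values were seen. In 48Q against WT, Lef1 and Grhl3 rose, and in 12Q against 48Q, Trp63 fell. Grhl3, a grainyhead factor of epidermal differentiation, had 6.73 and 6.81 CPM in 12Q tumors, 0.873 and 1.28 CPM in 48Q tumors, and no count in WT. It was at least 46.8-fold higher in 12Q (edgeR adjusted p = 0.00519) and 7.46-fold higher in 48Q (edgeR adjusted p = 0.0282), and the 48Q call was lost without 48Q replicate 1 (0.0782), 48Q replicate 2 (0.124), WT replicate 1 (0.0993) or WT replicate 2 (0.0501). Lef1, a nuclear partner of β-catenin, had 16.6 and 26.3 CPM in 12Q tumors, 44.9 and 34.0 CPM in 48Q tumors, and 2.66 and 5.88 CPM in WT, with all tumor libraries above WT. Its 12Q call was lost without 12Q replicate 2 (edgeR adjusted p = 0.0680) or WT replicate 1 (0.0538), and its 48Q call without 48Q replicate 1 (0.0910), 48Q replicate 2 (0.0843) or WT replicate 1 (0.106). Grhl1, Hoxc13 and Foxn1 were singled out for their known targets, after their values were seen. Grhl1, which in mouse skin acts on Dsg1 genes, had 69.0 and 144 CPM in 12Q tumors, 87.7 and 115 CPM in 48Q tumors, and 191 and 111 CPM in WT, with overlapping groups. Hoxc13 and Foxn1, hair factors known to act on the human DSG4 promoter, were too low to test, with 0 and 0 counts of Hoxc13 in 12Q tumors, 5 and 9 in 48Q tumors, and 0 and 0 in WT. Foxn1 had 1 and 2 counts in 12Q tumors, 6 and 6 in 48Q tumors, and none in WT.

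Hair follicle markers were higher in sum in all 4 tumor libraries than in WT, and squamous markers were so in the 12Q libraries. Of 12 hair follicle markers 8 were tested, and 4 rose in 12Q against WT, 4 rose in 48Q against WT and 1 rose in 12Q against 48Q. Their summed level was 258 to 1391 CPM in 12Q tumors, 161 to 233 CPM in 48Q tumors and 5.48 to 9.06 CPM in WT, and its largest part in the tumors was Tchh, trichohyalin, with 168 and 1186 CPM in 12Q tumors, 74.3 and 146 CPM in 48Q tumors, and 0.991 and 2.12 CPM in WT. Hoxc13 and Krt25 were at 0 in both 12Q libraries, and Hoxc13, Foxn1, Krt27, Krt71 and Krt35 in both WT libraries. Of the squamous markers 16 were listed in the counts and 15 were tested, with 8 higher and 1 lower in 12Q against WT, 5 higher in 48Q against WT, and 2 higher and 1 lower in 12Q against 48Q. Their summed level was 412 to 618 CPM in 12Q tumors, 140 to 153 CPM in 48Q tumors and 20.5 to 266.5 CPM in WT, where replicate 1 had 226 CPM of Sprr1a. In each WT library 5 of the 16 were at 0, Krt6b, Krt16, Sprr1b and Cnfn in both. Krt1, an epidermal keratin, was the squamous marker that fell in 12Q against both WT and 48Q, with 1 and 3 counts in 12Q tumors, 130 and 163 counts in 48Q tumors, and 21 and 20 counts in WT. Its call against WT was lost without 48Q replicate 1 (edgeR adjusted p = 0.0554) or 48Q replicate 2 (0.0583), and that against 48Q without 12Q replicate 1 (0.0583), 12Q replicate 2 (0.0614), 48Q replicate 1 (0.105) or 48Q replicate 2 (0.0827). Of 6 seminal vesicle markers, 1 rose in 12Q against WT, 2 rose in 48Q against WT and 3 fell in 12Q against 48Q, with sums of 1.55 to 2.41 CPM in 12Q tumors, 26.0 to 49.2 CPM in 48Q tumors and 0.730 to 0.884 CPM in WT. Of 5 urothelial markers, 1 rose in each tumor group against WT, with sums of 139.5 to 905 CPM in 12Q tumors, 119 to 134 CPM in 48Q tumors and 253 to 266.5 CPM in WT. The part of any of these lists in the results on the members was not tested.

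Few general epithelial markers were called, smooth muscle markers fell in both tumor groups, and macrophage markers rose in both. Of 10 pan-epithelial markers, Elf3 rose in 12Q against WT, a call lost without WT replicate 1 (edgeR adjusted p = 0.0895) or WT replicate 2 (0.0840), and none passed in the other comparisons (2 and 3 at an unadjusted p under 0.05). Their sum was 5729 to 6907 CPM in 12Q tumors, 2775 to 3110 CPM in 48Q tumors and 2761 to 7244 CPM in WT. Of 4 simple epithelial keratins Krt7 rose in 12Q against WT and against 48Q, the 48Q comparison losing its call without 12Q replicate 1 (edgeR adjusted p = 0.0554), 12Q replicate 2 (0.0735), 48Q replicate 1 (0.160) or 48Q replicate 2 (0.0870). The summed level of these keratins was 4940 to 5587 CPM in 12Q tumors, 1501 to 1673 CPM in 48Q tumors and 1323 to 5499 CPM in WT. All 6 smooth muscle markers fell in 12Q against WT, 3 fell in 48Q against WT and 4 fell in 12Q against 48Q, with sums of 36.3 to 44.4 CPM in 12Q tumors, 295 to 841 CPM in 48Q tumors and 2310 to 5839 CPM in WT. Of 6 fibroblast markers 3 fell in 12Q against WT and 3 fell in 12Q against 48Q, with Dpt at 0 in both 12Q libraries, and sums of 137 to 402 CPM in 12Q tumors, 804 to 935 CPM in 48Q tumors and 596 to 622 CPM in WT. In 48Q against WT none of the fibroblast markers passed (3 at an unadjusted edgeR p under 0.05, 2 of them higher). Of 5 endothelial markers, 2 rose and 1 fell in 12Q against WT and 1 fell in 48Q against WT, with sums of 178 to 191 CPM in 12Q tumors, 88.4 to 95.3 CPM in 48Q tumors and 72.2 to 89.1 CPM in WT. Of 5 macrophage markers, 4 rose in each tumor group against WT, with sums of 146 to 177 CPM in 12Q tumors, 200.2 to 218 CPM in 48Q tumors and 54.6 to 58.9 CPM in WT. The part of tissue make-up in the members' differences was not tested.

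Of the first tested genes on either side of the cadherin cluster, 1 was called in 12Q against WT. On the desmocollin side the first tested gene was 4921533I20Rik (chr18:17234483-17235482), which passed in no comparison. On the Dsg2 side it was Ttr, transthyretin (chr18:20665250-20674326), with 5.07 and 0.310 CPM in 12Q tumors, 0.482 and 0.285 CPM in 48Q tumors, and no count in WT. Ttr was at least 18.6-fold higher in 12Q against WT (edgeR adjusted p = 0.0482), and the bound was 2.22-fold with 12Q replicate 1 left out (0.0845) and 35.2-fold with 12Q replicate 2 left out (0.0262). The call was also lost without 48Q replicate 1 (0.0669), 48Q replicate 2 (0.0662), WT replicate 1 (0.130) or WT replicate 2 (0.135), and Ttr did not pass in 48Q against WT (edgeR adjusted p = 0.213).

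Genes whose log2 CPM followed a member most closely over the 6 libraries were ranked by Pearson's r among 9997 other genes with a mean of at least 10 CPM in a group. This is a description of 6 libraries in 3 groups that share depth and tissue make-up. A prior count of 2, scaled to library size, was added before the log. The WT values of Dsg4, at 0 counts in both libraries, were set by that addition alone. For Dsg4 they were Aspm (r = 0.9998), Frmpd1 (0.9994) and Kif11 (0.9986), and Aspm, a mitotic spindle gene, had 15.1 and 30.6 CPM in 12Q tumors, 7.68 and 13.0 CPM in 48Q tumors, and 1.46 and 1.42 CPM in WT. For Pkp1 they were Dnmt1 (0.9926), Dcaf15 (0.9921) and Fanca (0.9877). For Dsg2 they were Cdr2l (0.9994), Bzw2 (0.9932) and Srebf2 (0.9918), and for Dsc2 they were Taf3 (0.9964), Eif4enif1 (0.9947) and Tmpo (0.9933). Dsg1c was followed by C1qc (0.9864), Map1s (0.9859) and C1qb (0.9849), and Dsc1 by Dhx9 (0.9713), Nectin3 (0.9703) and Morc2a (0.9618). Of these genes Nectin3 encodes another cell adhesion molecule, and C1qb and C1qc encode complement proteins made by macrophages. Among member pairs r ran from -0.741 for Dsg2 and Dsc3 to 0.979 for Dsg2 and Dsc2.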

How the data were processed

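Total RNA of 6 mouse prostate libraries, 2 per group, was sequenced, and the authors deposited whole-number read counts per gene for 24091 genes. Alignment with TopHat2 2.0.14 to mm10 and counting with HTSeq 0.6.0 are named in the submitters' processing notes. The annotation behind the counts is not given in the sources used here, nor is the use of strand or of reads shared by related copies. Exon length in kilobases was taken from the deposited table as another value per gene. No column was left without a sample (0 unmatched).

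Counts were analysed in R 4.3.3 with edgeR 4.0.16. The filterByExpr filter (minimum count 10, minimum total 15) left 15050 genes, TMM factors of 0.708 to 1.24 were applied, and 1 quasi-likelihood fit over all 3 groups gave each comparison, with Benjamini-Hochberg adjustment over all genes tested. The SE of a log2 fold change was derived from the fold change and its F statistic. Where a group had 0 counts a bound against 3 counts per library is given, and where it had 1 to 3 counts a ratio with a 95% counting interval. Shares use CPM per kb. The procedure was tested on simulated data.

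All members, all plaque genes, up to 3 called genes of each other list, cluster neighbours and the 3 most similar genes were named. The members and lists were chosen with earlier results of these data known. Alternatives were DESeq2 1.42.0 and its size factors, library totals, no filter on low counts, only the compared groups, the replicate number as a term, each library left out, and other length scalings.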

Additional observations from a re-analysis of the deposited data

How the results depend on the processing

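No called member reversed its direction under any alternative, nor did any called list gene that was followed under them. Other listed genes were not followed singly, among them Krt5, Itgb4, Snai2, Zeb1 and the smooth muscle, fibroblast, endothelial and macrophage markers. Members called higher in 12Q against WT numbered 6, with 8 by DESeq2, 7 under library totals, 7 with a replicate block and 3 when only the compared groups were fitted. With a library left out the number stayed or fell. All genes called higher numbered 1687 of 15050 tested, with 2409 by DESeq2, 3266 under library totals and 1559 with a replicate block. With only the compared groups they numbered 997 of 14053. Members called lower there numbered 0, with 1 by DESeq2 and 0 to 1 with a library left out. Members called higher in 48Q against WT numbered 2, with 5 under library totals, 5 without a filter on low counts, 4 with only the compared groups and 5 with DESeq2. That number rose without either 12Q library and fell without any other library. All genes called higher there numbered 595 of 15050 tested, with 1921 under library totals and 1561 with DESeq2. They numbered 698 of 19156 without the filter and 828 of 14835 with only the compared groups. In 12Q against 48Q, DESeq2 called 2 members higher and 2 lower in place of 0, where it called 920 and 1561 of all genes tested. Plaque and partner genes called numbered 0 throughout, except for 2 under library totals, 2 by DESeq2 and 0 to 1 with a library left out in 12Q against WT, 1 by DESeq2 and 0 to 1 with a library left out in 48Q against WT, and 1 by DESeq2 in 12Q against 48Q. With only the compared groups, Dsg3 and Dsc3 in 12Q against WT were not tested, since neither passed the filter there.

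Genes called in all numbered 3370 in 12Q against WT, with 1887 when only those groups were fitted and 1861 to 2934 with a library left out. They numbered 780 in 48Q against WT, with 2004 under library totals, 2540 by DESeq2 and 0 to 1215 with a library left out (0 without WT replicate 1). They numbered 627 in 12Q against 48Q, with 2481 by DESeq2 and 47 to 866 with a library left out. Under library totals the median gene lay at a log2 fold change of 0.48, 0.71 and -0.19 in the 3 comparisons, and higher and lower calls numbered 3266 and 1032, 1921 and 83, and 62 and 379, where the TMM fit gave 1687 and 1683, 595 and 185, and 152 and 475. Dsg2 and Dsc2 in 48Q against WT, at 0.99 and 1.01 under library totals, lay about as far above the median gene as under TMM. Where a value shifted, the cause was not tested. Of 34 mean shares per group, 7 moved by more than the replicate spread without length scaling and 3 did so with GENCODE M21 exon lengths, a choice made after seeing the data. Among desmogleins, Dsg2 in WT was at 98.7% without length scaling in place of 97.5%, and Dsg1c at 4.88% in place of 8.62% in 48Q tumors and at 1.25% in place of 2.49% in WT. With GENCODE lengths, Dsg1b held 13.9% in place of 9.66% of the Dsg1 genes and 1.78% in place of 1.17% of desmogleins in 48Q tumors, and Dsg3 held 0.108% in place of 0.184% of desmogleins in 12Q tumors.

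Replicate numbers carry no pairing in the labels, and the deviations of same-numbered libraries correlated at 0.0252 (12Q and 48Q), 0.134 (12Q and WT) and -0.103 (48Q and WT). With a replicate block, 5 members were called higher in 48Q against WT and 2 were called higher in 12Q against 48Q (Dsg4 and Pkp1). Of all 15050 genes tested, 659 and 144 were called higher in these comparisons. At 2 libraries per group a missed threshold does not show that levels are alike, and Dsg3 and Dsc3 rest on few counts.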

Other observations

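B4galt6, a glycosyltransferase gene that follows Ttr beyond the cadherin cluster at chr18:20684599-20746404 (mm10), was chosen after its values were seen. It had 181 and 187 CPM in 12Q tumors, 31.5 and 27.6 CPM in 48Q tumors, and 7.36 and 10.3 CPM in WT. It was called higher by edgeR in all 3 comparisons, with a log2 fold change of 4.38 ± 0.274 in 12Q against WT (SE, edgeR adjusted p = 0.00256), 1.74 ± 0.247 in 48Q against WT (edgeR adjusted p = 0.0230) and 2.64 ± 0.251 in 12Q against 48Q (edgeR adjusted p = 0.0161). The 48Q call was lost without 48Q replicate 1 (0.126), 48Q replicate 2 (0.117) or WT replicate 1 (0.0974), and the 12Q-against-48Q call without 48Q replicate 1 (0.0848) or 48Q replicate 2 (0.0633). Trappc8, the next gene, passed in none of them.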
